A study of Homo sapiens with 3 samples.

Results

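Tight junctions and desmosomes hold epithelial cells together, and their genes were followed in UM-UC-3 cells, a line established from a human bladder cancer. The 38 genes were chosen by name, with earlier results of these data known. They are 24 genes of the tight junction, 13 of the desmosome and EPCAM, whose product binds claudins. Each name matched 1 row of the deposited table, so all 38 were found among its 50867 genes. Of these, 36 had a mean of at least 1 CPM (the count scaled to library size) over the 3 libraries and were tested, and CLDN2 and CLDN6 were not. The shBLACAT2 group (n = 2) holds a library of each of 2 lentiviral hairpins that target BLACAT2, a long non-coding RNA, here called the libraries labelled shRNA 1 and shRNA 2. The control, shControl (n = 1), carried a scramble hairpin. Every culture was infected with lentivirus in the presence of polybrene and kept under puromycin for 2 weeks as a stable line. Each stable line gave 1 RNA sequencing library, so no hairpin has a replicate of its own.

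The tight junction seals the space between neighbouring cells near their apical side. Claudins form its strands and set which ions pass, and occludin and some other MARVEL proteins sit beside them. Scaffold proteins such as ZO-1 tie the strands to actin. The desmosome lies below and bears mechanical load. Its cadherins, the desmogleins and desmocollins, bind across the gap, plakoglobin and plakophilins sit on their tails, and plakins tie the plaque to keratin filaments. In the bladder, claudins of the urothelium keep urine out of the tissue, and loss of junction genes is a known feature of cells that take on a mesenchymal state.

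The libraries held 17670199 counts (labelled shRNA 1), 16216947 counts (labelled shRNA 2) and 16424422 counts (scramble control). BLACAT2, listed as LINC00958, had 816 counts in the library labelled shRNA 1 and 1062 in that labelled shRNA 2, against 938 in the control. Scaled for library size, this was 0.731 of the control (95% counting interval 0.665 to 0.804) and 0.958 of it (interval 0.877 to 1.05). Loss of the target was thus not detected with shRNA 2. With shRNA 1 it was lower beyond counting error only. An edgeR test of both hairpin libraries against the control did not call it (log2 fold −0.24, SE 0.35, adjusted p = 0.920). Every difference below therefore belongs to the library so labelled. Counting intervals here cover counting error only. Of 9 urothelial markers, 6 were tested. Of these, 2 (UPK1B and UPK2) were past 2-fold upward with both hairpins (5.06% of all genes tested) and 0 downward (4.63%). GATA3 had 1389 and 1192 counts with the hairpins, against 538 in the control. The log2 folds over the control were 0.82 and 0.38 for PPARG, 0.55 and 0.74 for UPK3B, and 0.12 and −0.48 for FOXA1. KRT20 was at 0 counts in every library, and UPK1A and UPK3A had at most 1 count. The 7 leukocyte markers summed to 1.12 and 1.87 CPM with the hairpins, against 1.87 CPM in the control, and the 6 endothelial markers to 4.83 and 6.62 CPM, against 3.54 CPM. Single markers went either way. Of leukocyte markers, PTPRC had 3 and 4 counts with the hairpins, against 0 in the control, CD14 had 15 and 20, against 23, and LYZ 0 and 2, against 5. Of endothelial markers, CDH5 had 42 and 66 counts with the hairpins, against 18 in the control, VWF had 4 and 13, against 2, and EMCN was at 0 in every library. The part of these cell types in the values below was not tested.

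Members of both junctions stood apart from the control. At least 2-fold higher with both hairpins were CLDN1, CLDN3, CLDN7, OCLN, CXADR, PKP2 and PPL, and at least 2-fold lower were DSP and PKP1. These are 7 of 36 tested members higher, where 5.06% of all 15132 genes tested were, and 2 of 36 lower, where 4.63% of all genes tested were. Either way that is 9 of 36 members, against 9.69% of genes. Since the members were chosen with earlier results of these data known, these counts are a description and not a test. With shRNA 1 alone, 8 members were at least 2-fold higher (7.87% of genes) and 2 lower (7.46%), and with shRNA 2 alone 10 were higher (12.0% of genes) and 3 lower (9.52%). In bulk RNA, fewer cells that express a gene and less of its RNA per cell cannot be told apart. The tight junction genes gave 5 of 22 higher and 0 lower, the desmosome genes 2 of 13 higher and 2 lower. CLDN3 and CLDN16 passed the level filter through their hairpin libraries, since both stood below 1 CPM in the control. PKP1 fell in edgeR's quasi-likelihood test of both hairpin libraries against the control (adjusted p = 0.0314), and no other member passed. That test called 158 genes in all (1.04%), 0.271% of genes higher and 0.773% lower. The call of PKP1 depended on the scaling and the filter, as given with its values.

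**Figure D1:**
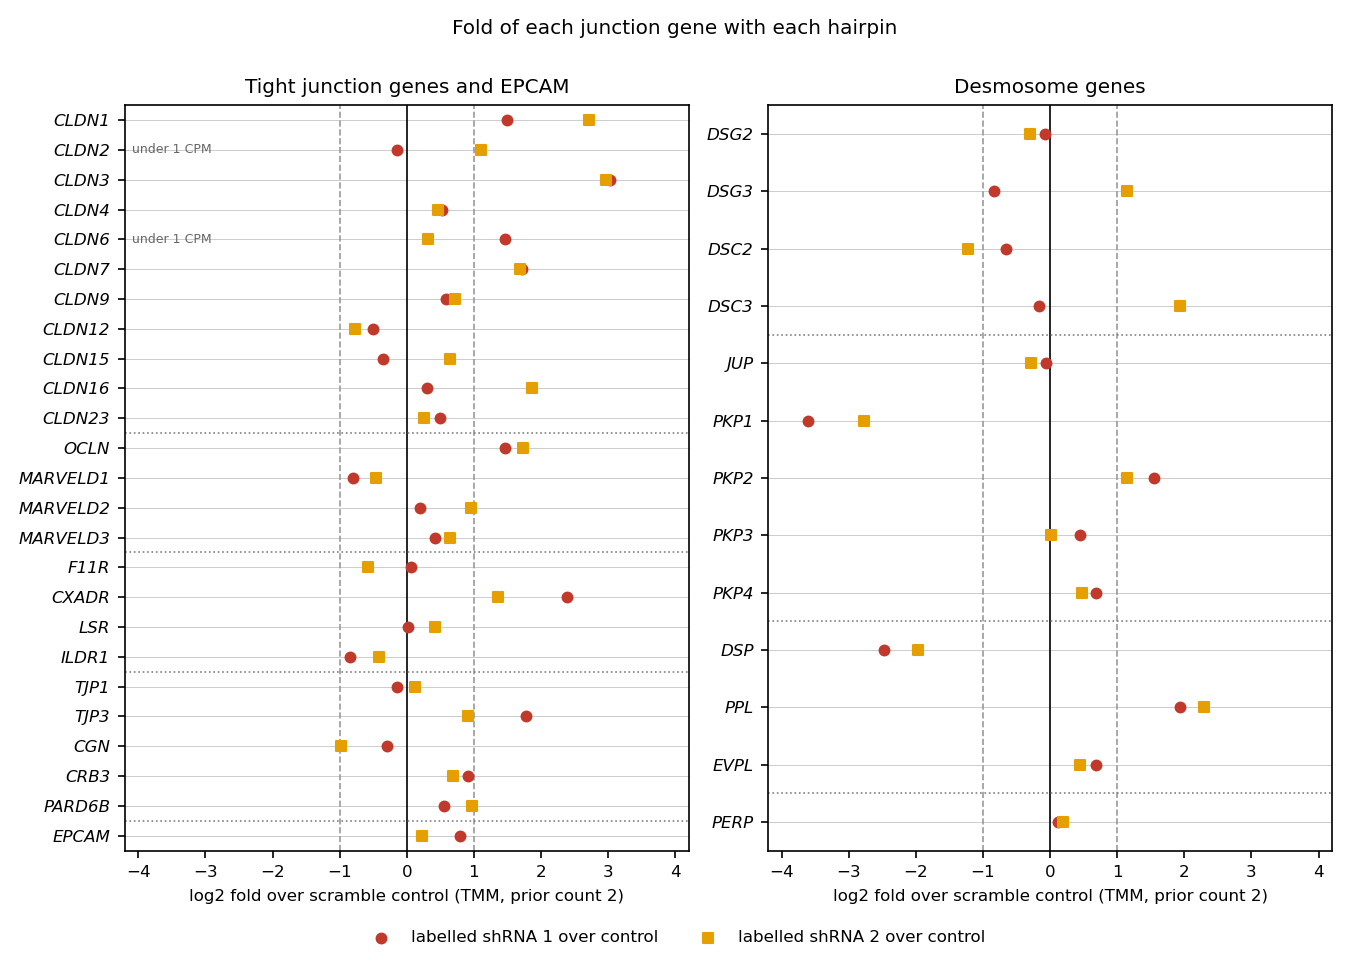
Log2 fold over the scramble control (x axis) for each gene (rows), in the library labelled shRNA 1 (circles) and in that labelled shRNA 2 (squares). Dashed lines mark 2-fold and dotted lines separate roles. PKP1 and DSP lie left of the lower line with both hairpins, and CLDN1, CLDN3, CLDN7, OCLN, CXADR, PKP2 and PPL lie right of the upper one.

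Promoter sequence is given, as the stretch from which each RNA starts, for the 6 of these 9 genes that the RefSeq table holds: CLDN1, CLDN3, CLDN7 and OCLN of the higher ones, and DSP and PKP1, the lower ones. The motif CAGGTG, which reads CACCTG on the other strand, was searched for in them. It is an E-box of the kind bound by the ZEB and SNAI repressors of epithelial genes. Sequences are RefSeq's on GRCh38.p14, each 280 bases from 250 before to 30 after an annotated start, 5′ to 3′ on the gene's own strand, with matches in capitals. CLDN1 is at chr3:190322417-190322696 (minus strand), CLDN3 at chr7:73770241-73770520 (minus strand), CLDN7 at chr17:7262449-7262728 (minus strand), OCLN at chr5:69492297-69492576 (plus strand), DSP at chr6:7541421-7541700 (plus strand) and PKP1 at chr1:201283256-201283535 (plus strand). CLDN7 and OCLN each have 2 starts in the table. The start shown is that with more matches in the stretch for CLDN7, and the first of 2 with equal numbers for OCLN.
CLDN1: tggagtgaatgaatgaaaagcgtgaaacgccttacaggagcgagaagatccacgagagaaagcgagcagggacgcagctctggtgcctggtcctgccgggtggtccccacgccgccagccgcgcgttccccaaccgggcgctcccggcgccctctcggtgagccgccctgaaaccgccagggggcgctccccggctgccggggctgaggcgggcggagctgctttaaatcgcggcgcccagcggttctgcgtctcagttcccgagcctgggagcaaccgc
CLDN3: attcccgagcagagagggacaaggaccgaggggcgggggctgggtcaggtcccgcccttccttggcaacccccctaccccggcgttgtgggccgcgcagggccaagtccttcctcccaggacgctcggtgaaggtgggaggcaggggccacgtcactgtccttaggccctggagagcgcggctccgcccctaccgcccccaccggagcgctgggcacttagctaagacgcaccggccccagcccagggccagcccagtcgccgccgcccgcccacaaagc
CLDN7: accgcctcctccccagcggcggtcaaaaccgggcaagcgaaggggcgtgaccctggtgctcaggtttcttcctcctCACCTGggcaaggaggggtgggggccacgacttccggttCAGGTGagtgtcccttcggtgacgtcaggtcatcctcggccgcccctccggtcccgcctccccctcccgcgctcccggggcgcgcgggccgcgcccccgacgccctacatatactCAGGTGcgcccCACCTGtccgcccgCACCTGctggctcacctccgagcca
OCLN: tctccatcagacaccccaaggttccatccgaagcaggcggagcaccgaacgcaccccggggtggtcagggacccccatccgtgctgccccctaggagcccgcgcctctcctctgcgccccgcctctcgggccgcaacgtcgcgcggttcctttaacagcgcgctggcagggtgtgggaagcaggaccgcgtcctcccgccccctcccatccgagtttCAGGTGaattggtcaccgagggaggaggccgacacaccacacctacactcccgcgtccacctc
DSP: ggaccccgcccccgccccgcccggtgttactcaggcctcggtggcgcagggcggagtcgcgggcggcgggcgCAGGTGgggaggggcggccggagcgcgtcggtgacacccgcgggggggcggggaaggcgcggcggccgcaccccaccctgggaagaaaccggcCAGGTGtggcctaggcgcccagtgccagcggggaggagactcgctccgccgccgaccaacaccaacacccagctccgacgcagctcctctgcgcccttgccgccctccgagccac
PKP1: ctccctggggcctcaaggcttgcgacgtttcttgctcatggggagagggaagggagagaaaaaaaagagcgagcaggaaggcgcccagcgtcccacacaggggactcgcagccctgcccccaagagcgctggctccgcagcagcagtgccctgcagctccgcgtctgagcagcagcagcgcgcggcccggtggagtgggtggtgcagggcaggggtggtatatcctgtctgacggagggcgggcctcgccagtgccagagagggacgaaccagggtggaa
The CLDN7 stretch held 5 matches, that of OCLN 1 and that of DSP 2. No match was found in those of CLDN1, CLDN3 and PKP1. The 300-base window of CLDN3 held 1 match, past the printed stretch. The RefSeq table matched 27 of the 38 genes with 38 windows of 300 bases, and 14 of these (36.8%) held the motif on either strand, against 20.6% of all 35116 windows. It was in 38.5% of 26 tight junction windows and in 33.3% of 12 desmosome windows. The palindrome AACCGGTT, a binding motif of grainyhead factors, was in 0 of the 38 windows and in 0.134% of all windows. A match marks letters only, and nothing was measured at these promoters.

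CLDN1 (ENSG00000163347; hg38, chromosome 3, 190305701 to 190322475, minus strand) encodes a barrier-forming claudin. It had 2965 counts in the library labelled shRNA 1 and 6827 in that labelled shRNA 2, against 881 in the control. Both hairpin libraries lay above the control, and that labelled shRNA 2 lay far above the other. Scaled, it was 2.83-fold higher (95% counting interval 2.62 to 3.05) with shRNA 1 and 6.56-fold higher (interval 6.11 to 7.04) with shRNA 2. The mean log2 fold of 2.10 ± 0.86 (SD, n = 2) did not pass edgeR's test (log2 fold 2.23, SE 0.61, adjusted p = 0.196).

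CLDN7 (ENSG00000181885; chromosome 17, 7259903 to 7263983, minus strand) encodes a claudin that binds EPCAM. It had 2095 and 2052 counts with the hairpins, against 537 in the control, and the hairpin libraries were nearly alike. This was 3.28-fold (interval 2.98 to 3.61) and 3.23-fold higher (interval 2.94 to 3.56), with a mean log2 fold of 1.70 ± 0.01 (SD, n = 2) and an edgeR adjusted p of 0.106. Its row overlaps ELP5, a gene of the opposite strand with 457 and 356 counts with the hairpins, against 538 in the control, so shared reads cannot be told apart where strand use is not stated.

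CLDN3 (ENSG00000165215; chromosome 7, 73768997 to 73770270, minus strand), a sealing claudin, was nearly absent from the control. It had 83 and 79 counts with the hairpins, against 7 in the control, a 9.97-fold (interval 4.63 to 25.6) and a 9.55-fold difference (interval 4.43 to 24.5). The edgeR adjusted p was 0.136 for a log2 fold of 3.27 (SE 0.78). Its neighbour CLDN4, which lies 29271 bases away, had far more counts and a smaller difference: 4027 and 3860 with the hairpins, against 2357 in the control. The log2 folds of CLDN4 were 0.52 and 0.47 (edgeR adjusted p = 0.791).

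The other claudins differed less or in 1 library only. CLDN9 had log2 folds of 0.58 and 0.72 and CLDN23 of 0.49 and 0.26, both higher with each hairpin by less than 2-fold. CLDN12 stood below the control with both, at −0.51 and −0.77, on 711 and 590 counts with the hairpins, against 853 in the control; it overlaps GTPBP10 and CDK14 on its own strand. CLDN15, which forms a cation pore, had −0.36 and 0.64. CLDN16, known for magnesium handling in the kidney, lies 65 bases from CLDN1 and had 21 and 66 counts with the hairpins, against 14 in the control. It was 3.99-fold higher with shRNA 2 (interval 2.22 to 7.69), and with shRNA 1 its interval of 0.611 to 2.68 included the control's level. CLDN2, a cation-pore claudin, had 3 and 10 counts with the hairpins, against 3 in the control (ratio with shRNA 2 of 2.82, with a lower bound of 0.727), and CLDN6, an embryonic claudin, had 7 and 2, against 1, so neither difference was detectable at this depth.

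OCLN (ENSG00000197822; chromosome 5, 69492292 to 69558104, plus strand) encodes occludin. It had 1087 and 1292 counts with the hairpins, against 328 in the control. Both hairpin libraries were higher by similar amounts, 2.79-fold (interval 2.46 to 3.16) and 3.33-fold (interval 2.95 to 3.78), with an edgeR adjusted p of 0.119. Its neighbour MARVELD2, which encodes tricellulin, found at cell corners, had 525 and 880 counts with the hairpins, against 385 in the control (log2 folds 0.20 and 0.95). MARVELD3 had 0.42 and 0.65 and overlaps PHLPP2 on the other strand. MARVELD1, the MARVEL gene of highest FPKM, was lower in both, with 1054 and 1326 counts with the hairpins, against 1540 in the control (−0.80 and −0.46).

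CXADR, the coxsackievirus and adenovirus receptor of the tight junction (ENSG00000154639; chromosome 21, 17512382 to 17593579, plus strand), was the tested member with the largest excess of shRNA 1 over shRNA 2. It had 417 and 204 counts with the hairpins, against 66 in the control, 5.31-fold (interval 4.09 to 6.99) and 2.62-fold higher (interval 1.97 to 3.51; edgeR adjusted p = 0.254). The other immunoglobulin-like proteins gave smaller values. F11R, which encodes JAM-A, had log2 folds of 0.07 and −0.58, and LSR, the angulin that recruits tricellulin, had 0.02 and 0.42. ILDR1, another angulin, had 13 and 18 counts with the hairpins, against 21 in the control, with under 1 CPM in the library labelled shRNA 1. Its ratio intervals of 0.239 to 1.09 and 0.364 to 1.43 both included the control's level.

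No scaffold or polarity gene was 2-fold away with both hairpins under TMM scaling. TJP3, which encodes ZO-3, came nearest, with 173 and 93 counts with the hairpins, against 41 in the control (log2 folds 1.78 and 0.91, edgeR adjusted p = 0.516). With library totals as the scaling its log2 folds were 1.92 and 1.16, past 2-fold with both, which made 8 members and 6 tight junction genes higher. TJP1, which encodes ZO-1 and had the highest FPKM of this role, had 2612 and 3093 counts with the hairpins, against 2416 in the control. Its log2 folds were −0.14 and 0.12, and the sign of the first turned to 0.01 with library totals as the scaling. The polarity genes CRB3 (0.91 and 0.69) and PARD6B (0.55 and 0.97) were above the control in both, and cingulin, CGN, was below it (−0.30 and −0.98). CRB3 is uncertain, since SLC25A23 and DENND1C overlap it on the other strand with 866 and 199 counts in the library labelled shRNA 1, against its own 234.

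EPCAM (ENSG00000119888; chromosome 2, 47345158 to 47387601, plus strand) had 4377 and 2951 counts with the hairpins, against 2131 in the control. It was 1.73-fold (interval 1.64 to 1.82) and 1.17-fold higher (interval 1.11 to 1.24), with an edgeR adjusted p of 0.799. By deposited FPKM it was the highest of the 38 genes in the library labelled shRNA 1.

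In the desmosome, genes of plaque proteins lay on both sides of the control, while DSG2 and JUP differed from it by less than 2-fold. DSP (ENSG00000096696; chromosome 6, 7541575 to 7586717, plus strand) encodes desmoplakin, the link to keratin filaments. It had 15307 and 21490 counts with the hairpins, against 71458 in the control, and took 0.0866% and 0.133% of all counts with the hairpins, against 0.435% in the control. Both hairpin libraries lay far below the control, by 5.55-fold (ratio 0.180, interval 0.177 to 0.183) and 3.93-fold (ratio 0.255, interval 0.251 to 0.258). Its mean log2 fold was −2.22 ± 0.35 (SD, n = 2), and edgeR gave an adjusted p of 0.148.

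PPL (ENSG00000118898; chromosome 16, 4882507 to 4960741, minus strand) encodes periplakin, a plakin of the upper epithelium, and stood on the other side of the control. It had 4340 and 5508 counts with the hairpins, against 954 in the control, 3.82-fold (interval 3.56 to 4.11) and 4.89-fold higher (interval 4.56 to 5.24). The mean log2 fold of 2.11 ± 0.25 (SD, n = 2) had an edgeR adjusted p of 0.0922. EVPL, which encodes its partner envoplakin, had 1819 and 1535 counts with the hairpins, against 948 in the control (log2 folds 0.69 and 0.45). Summed deposited FPKM of the 3 plakins was 80.2 and 116 with the hairpins, against 293 in the control. DSP made up 70.8% and 74.7% of it with the hairpins, against 97.4% in the control, and PPL 21.1% and 20.1%, against 1.37%.

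PKP1 (ENSG00000081277; chromosome 1, 201283452 to 201332993, plus strand) encodes plakophilin 1, a plaque protein of stratified epithelia. It had 99 and 176 counts with the hairpins, against 1026 in the control. It fell by 12.3-fold (ratio 0.0811, interval 0.0653 to 0.0998) with shRNA 1 and by 6.89-fold (ratio 0.145, interval 0.123 to 0.171) with shRNA 2, the lowest folds among the 36 tested members in these libraries. Its edgeR log2 fold was −3.14 (SE 0.43, adjusted p = 0.0314), from a mean log2 fold of −3.18 ± 0.58 (SD, n = 2). This call was lost with library totals as the scaling (adjusted p = 0.0935), with scaling factors taken from the tested genes only (0.0952) and without the level filter (0.747).

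Its relative PKP2 (ENSG00000057294; chromosome 12, 32790745 to 32896840, minus strand), the plakophilin of simple epithelia and heart, was higher. It had 728 and 546 counts with the hairpins, against 208 in the control, 2.94-fold (interval 2.52 to 3.45) and 2.22-fold higher (interval 1.89 to 2.62; edgeR adjusted p = 0.230). PKP3 had log2 folds of 0.44 and 0.02, and PKP4, whose product is also found at adherens junctions, of 0.69 and 0.48. JUP, which encodes plakoglobin, had 6198 and 5245 counts with the hairpins, against 5446 in the control (−0.06 and −0.29, the first 0.08 with library totals). Summed deposited FPKM over JUP and the plakophilins, which carries no TMM scaling, was 81.5 and 73.0 with the hairpins, against 72.6 in the control. The share of PKP1 in it was 0.886% and 1.92% with the hairpins, against 11.1%. In TMM-scaled CPM the sum over these genes was 701 and 582 with the hairpins, against 656, so its side of the control with shRNA 2 depends on the scale.

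**Figure D2:**
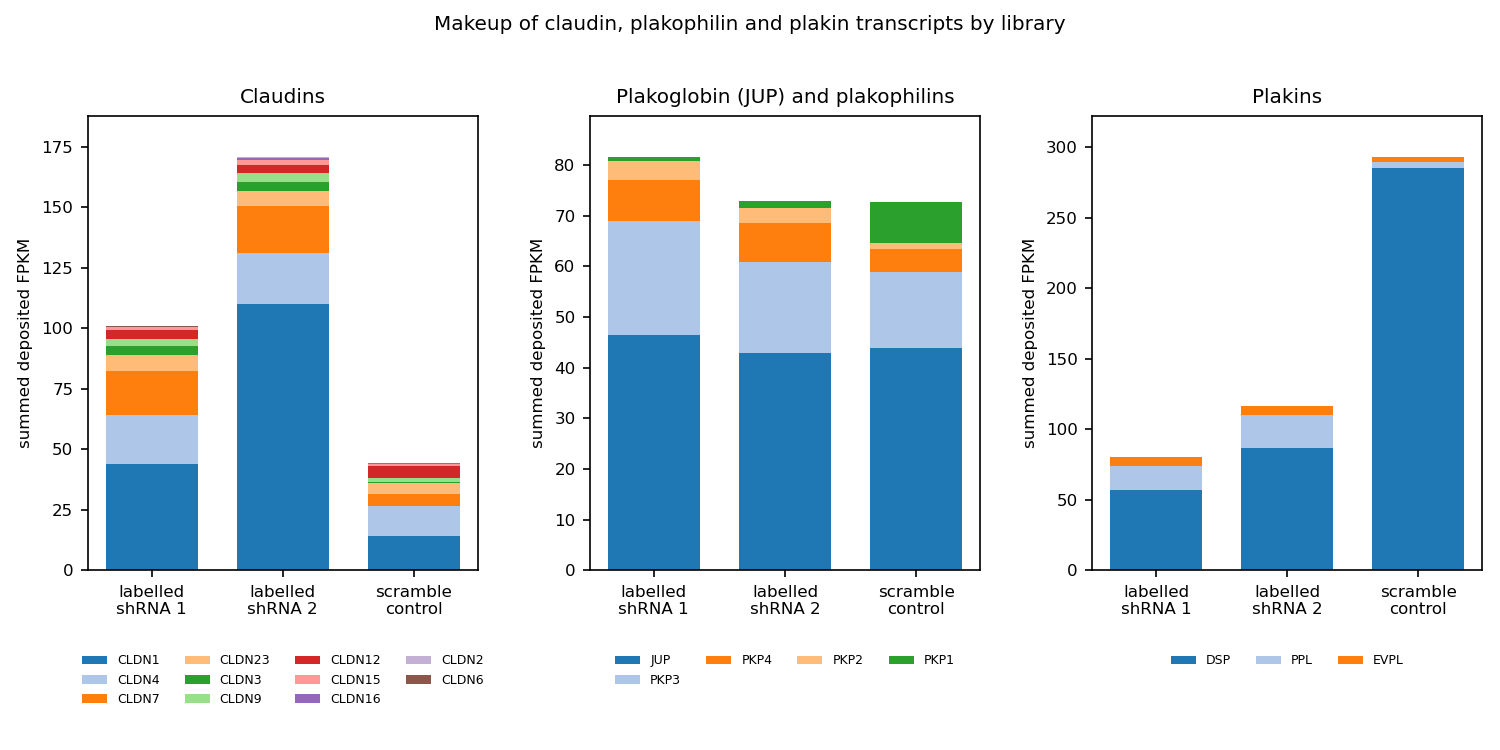
Stacked bars from 0 of the deposited FPKM (y axis) of claudins, of JUP with the plakophilins, and of plakins, in the libraries labelled shRNA 1 and shRNA 2 and in the scramble control (x axis, 1 bar per library). The claudin bars reach 101 and 171 with the hairpins, against 44.4 in the control, and the plakin bars 80.2 and 116, against 293. The bars carry no TMM scaling. In TMM-scaled CPM the claudin sums were 583 and 793, against 332, and the plakin sums 1206 and 1614, against 4903.

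Among desmosomal cadherins DSG2, the desmoglein of simple epithelia, made up 93.8% and 88.9% of the summed FPKM with the hairpins, against 91.3% in the control. It had 6182 and 5234 counts with the hairpins, against 5454 in the control (log2 folds −0.07 and −0.30, the first 0.08 with library totals; edgeR adjusted p = 0.946). DSC2, its usual partner, was lower in both, with 697 and 463 counts with the hairpins, against 920 in the control (−0.65 and −1.23, adjusted p = 0.435). The cadherins of stratified epithelia differed between hairpins. DSC3 had 140 and 599 counts with the hairpins, against 132 in the control, so that the library labelled shRNA 2 alone stood apart, 3.84-fold higher (interval 3.18 to 4.67). DSG3 had 25 and 104 counts with the hairpins, against 39 in the control, 0.539 of the control (interval 0.313 to 0.913) with shRNA 1 and 2.26-fold higher (interval 1.55 to 3.35) with shRNA 2. PERP, a tetraspan protein of desmosomes, had 4253 and 4452 counts with the hairpins, against 3282 in the control (0.12 and 0.20).

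**Figure D3:**
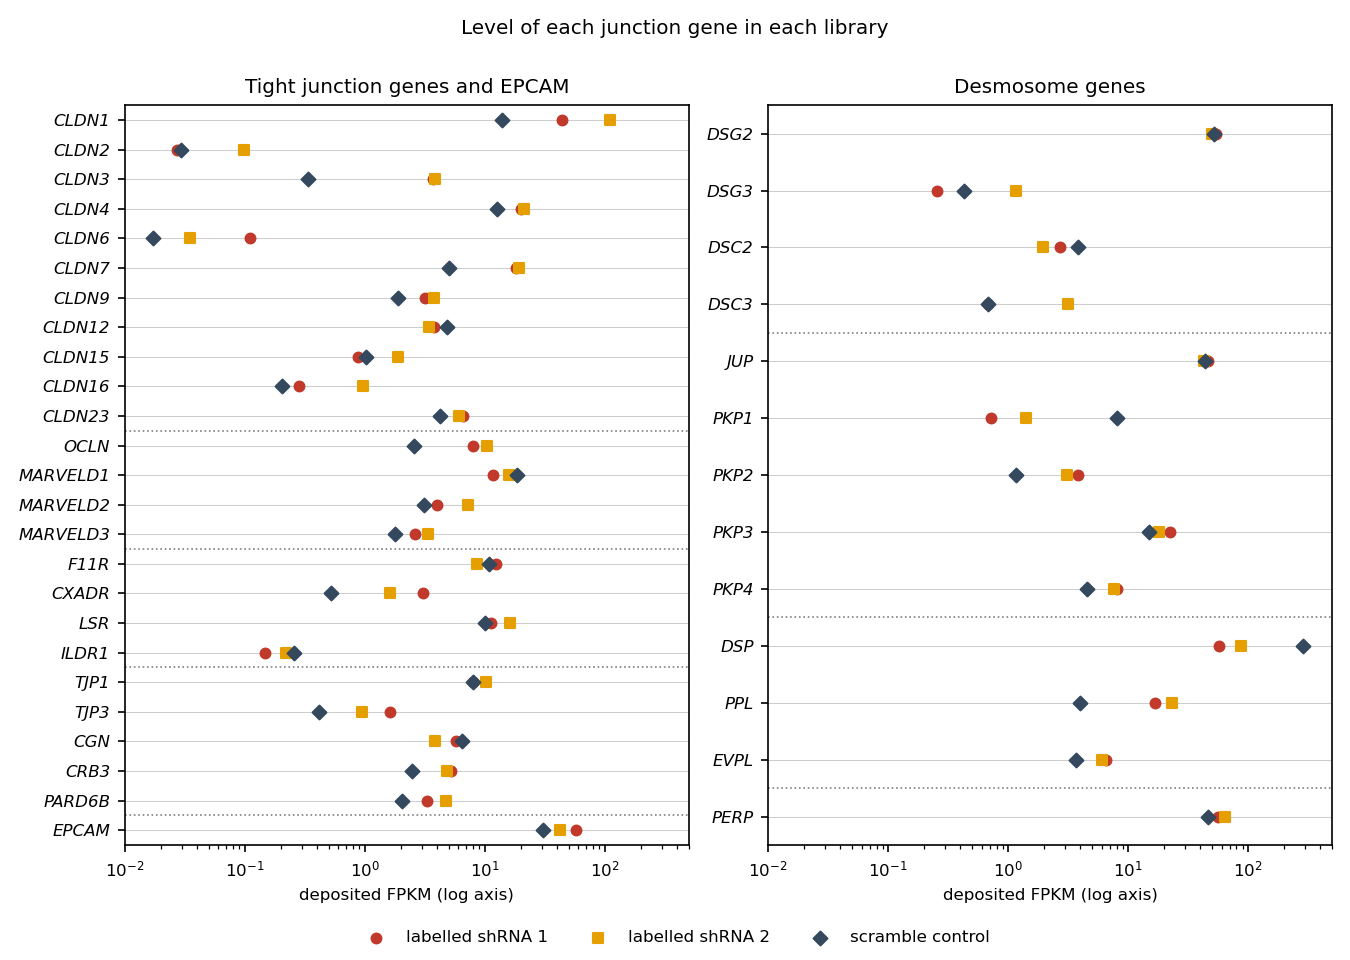
Deposited FPKM (x axis, log scale) of each gene (rows) in the libraries labelled shRNA 1 (circles) and shRNA 2 (squares) and in the scramble control (diamonds), with dotted lines between roles. DSP is the highest gene of the control at 285 FPKM, and CLDN1 the highest of the library labelled shRNA 2 at 110 FPKM.

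Levels per length put desmosome genes first in the control. By deposited FPKM, DSP had 56.7 and 86.8 with the hairpins, against 285 in the control, where DSG2 (51.6), PERP (46.6), JUP (43.9) and EPCAM (30.3) followed. These neighbours cannot be ordered beyond error, since each library is alone of its kind. In the library labelled shRNA 1 the order began with EPCAM (57.8), DSP (56.7) and PERP (56.1), and in that labelled shRNA 2 with CLDN1 (110), DSP (86.8) and PERP (64.0). This order also turned with the gene length: with principal transcript lengths it began with EPCAM (144), JUP (100) and DSP (88.4) in the library labelled shRNA 1, and with DSP (135), CLDN1 (121) and EPCAM (106) in that labelled shRNA 2, while DSP (444) still led in the control. Summed FPKM of the 24 tight junction genes was 178 and 259 with the hairpins, against 111 in the control, and that of the 13 desmosome genes 276 and 310, against 468. Deposited FPKM carries no TMM scaling. In TMM-scaled CPM, which is not divided by gene length, the tight junction sum was 1179 and 1435 with the hairpins, against 907. That of the desmosome genes was 2542 and 2811, against 6216.

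Among claudins, too, the order depended on the gene length used. The length behind the deposited FPKM, worked out from counts and library totals, was 6529 bases for CLDN7 and 11275 bases for CLDN4, against 1542 and 4163 bases for their principal transcripts in GENCODE release 29. Over the 38 genes it was between 1.00 and 4.23 times that transcript's length. By deposited FPKM, CLDN1 held 43.5% and 64.5% of claudin levels with the hairpins, against 31.6% in the control. With principal transcript lengths it held 23.2% and 41.5% with the hairpins, against 16.1%. CLDN7 then held 37.0% and 28.2% with the hairpins, against 22.2% in the control, and was the highest claudin in the library labelled shRNA 1, while CLDN4 (36.1%) was the highest in the control. Folds between libraries do not depend on this length.

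Over the tested tight junction genes the median log2 fold was 0.45 with shRNA 1 and 0.67 with shRNA 2, and over the desmosome genes −0.06 and 0.20, where all genes tested had 0.00 and −0.01. No direction is given for the desmosome median with shRNA 1, since it was 0.08 with library totals as the scaling. Of 22 tight junction genes, 15 were above the control with both hairpins and 4 below, and of 13 desmosome genes 6 were above and 5 below, where of 15132 genes tested 5282 were above and 5416 below. The hairpin libraries share the 1 control, which enters both folds. For 22 of the 36 tested members the smaller fold exceeded the difference between hairpins, as it did for 5658 of all 15132 genes tested. Between the hairpin libraries the median absolute difference was 0.40 on the log2 scale, against 0.37 over all genes tested. It ranged from −1.01 (CXADR) to 2.09 (DSC3), shRNA 2 minus shRNA 1, and reached 1 for 5 members, where 12.8% of all genes did. This difference has no replicate check.

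**Figure D4:**
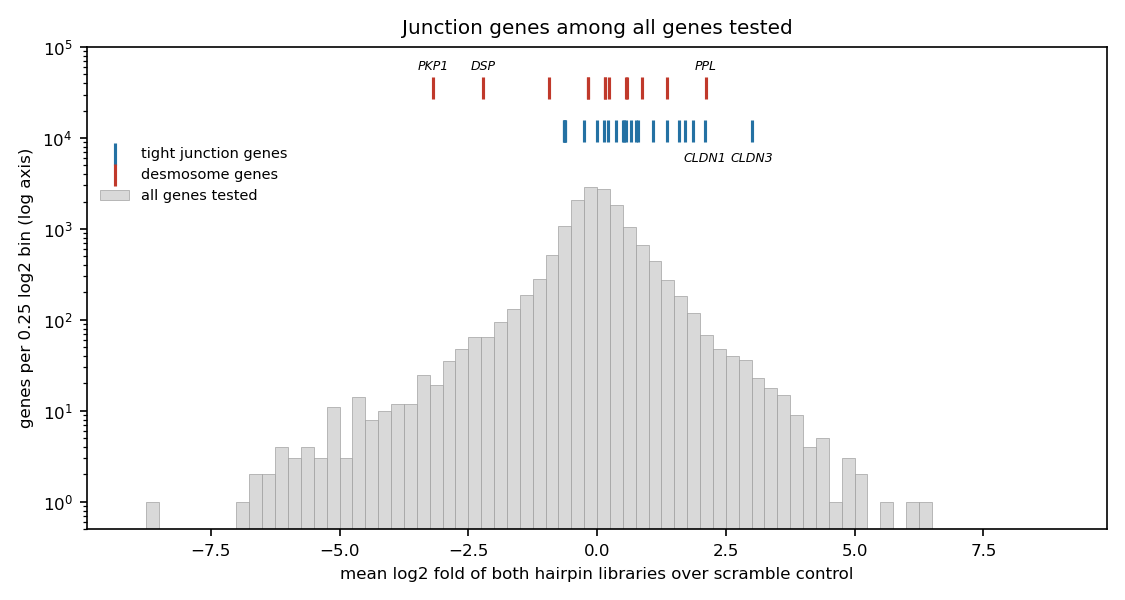
Histogram of the mean log2 fold of both hairpin libraries over the control (x axis) for all 15132 genes tested (grey, count per bin on a log axis), with ticks for the tested tight junction (blue) and desmosome genes (red). Desmosome ticks reach −3.18 (PKP1) on the left and 2.11 (PPL) on the right.

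The edgeR test has 1 residual degree of freedom, taken from how far the hairpin libraries lie apart, and treats the single control as if it varied to the same extent. An unadjusted p below 0.05 was found for 10 of 36 members, 7 higher and 3 lower, where 10.8% of all genes tested had one. DESeq2 called 6 members, where it called 3.67% of genes: CLDN1 (adjusted p = 0.00258), CLDN7 (0.00867), OCLN (0.0309) and PPL (0.000211) higher, and DSP (7.14e-05) and PKP1 (4.87e-06) lower. With limma, PKP1 alone among members passed (adjusted p = 0.0454). Scaling factors taken from the tested genes only, an alternative added after the data were seen, left 6 genes past edgeR's test, none of them a member.

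Other tight junction genes, from a textbook list of 31 found in the table, had 21 tested members. Of these, 1 exceeded the control by 2-fold or more with both hairpins (5.06% of all genes) and 2 lay below it by as much (4.63% of all genes). The median log2 fold of the 21 was 0.26 with shRNA 1 and 0.28 with shRNA 2, against 0.45 and 0.67 for the chosen tight junction genes. With both hairpins 8 of the 21 were above the control and 5 below. AMOT, which encodes angiomotin, had log2 folds of 1.99 and 1.91. The junctional adhesion genes JAM3 (−1.24 and −1.61) and JAM2 (−1.41 and −1.81) were lower, JAM2 with under 1 CPM in the library labelled shRNA 2, and none of these passed edgeR's test (adjusted p from 0.0881 to 0.433). Of 5 other desmosome genes KAZN alone was tested. It encodes kazrin, which binds periplakin, and had 1419 and 2288 counts with the hairpins, against 321 in the control (log2 folds 1.89 and 2.59, adjusted p = 0.0855). DSG1 and DSG4 were at 0 counts in every library.

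Of 11 adherens junction genes, all tested, 1 was past 2-fold upward with both hairpins (5.06% of all genes) and 1 downward (4.63% of all genes). These were E-cadherin CDH1 (1.22 and 1.04) and beta-catenin CTNNB1 (−1.04 and −1.51), with edgeR adjusted p of 0.350 and 0.364. CTNNB1 was only just past 2-fold with shRNA 1, where library totals as the scaling moved the median of all genes up by 0.14. Its place past 2-fold therefore depends on the scaling. Of 5 genes of membrane proteases and protease inhibitors, all tested, 1 was past 2-fold upward with both hairpins (5.06% of all genes) and 0 downward (4.63% of all genes). That gene, TMPRSS4, rose. It had 2049 and 933 counts with the hairpins, against 98 in the control (log2 folds 4.11 and 2.99, edgeR adjusted p = 0.0499). Matriptase ST14, which cleaves EPCAM, had 1.08 and 0.52.

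Regulators of junction genes stood on both sides. Of 11 activators of the epithelial state, 4 exceeded the control 2-fold with both hairpins (5.06% of all genes) and 1, TP63 (−3.35 and −2.76), was lower. TP63 had 0.449 and 0.736 CPM with the hairpins, against 5.68 CPM in the control, and so passed the level filter through the control. GRHL3 (3.32 and 3.11, edgeR adjusted p = 0.0262) and ELF3 (2.79 and 2.52, adjusted p = 0.0432) rose, while GRHL1 (1.44 and 1.26) and KLF5 (1.08 and 1.01) did not pass. TMPRSS4, GRHL3 and ELF3 all lost the call with library totals, with scaling on the tested genes (adjusted p = 0.129, 0.0799 and 0.0923 in that order) and without the filter, and ELF3 alone of these kept it with limma. Of 6 repressors, 5 were at least 2-fold lower with both (4.63% of all genes), none passed edgeR's test and 5 had an unadjusted p below 0.05. DESeq2 called 1 of them, SNAI1 (adjusted p = 0.00316). SNAI1 had 54 and 42 counts with the hairpins, against 296 in the control (adjusted p = 0.0576), and ZEB1 had 12 and 28, against 116, with under 1 CPM in the library labelled shRNA 1. ZEB2 (−2.45 and −2.97), TWIST2 (−1.59 and −2.13) and SNAI2 (−2.39 and −1.24) were also among the lower repressors. ZEB2 had under 1 CPM in the library labelled shRNA 2, and SNAI2 had 318 and 703 counts with the hairpins, against 1408 in the control. The part of these regulators in the junction gene values was not tested.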

How the data were processed

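The deposited table gives, per gene and library, whole-number read counts and FPKM made by the authors. The submitters' processing notes name TopHat2 2.0.9 and hg38. The counting tool, its strand setting and the annotation release were not given in the sources used here. Between libraries, FPKM per count had the same ratio for every gene with over 20 counts in each library, that of the library totals, so deposited FPKM carries no TMM scaling. A row broken over 4 lines was left out. Counts were scaled with TMM factors over all genes (1.01, 1.09 and 0.911 for shRNA 1, shRNA 2 and the control). Log2 folds use a prior count of 2. Those averaging 1 CPM or more were tested with edgeR 4.0.16 (quasi-likelihood, two-sided, Benjamini-Hochberg over all genes, adjusted p below 0.05). The fit was also run on simulated counts with the same folds for both hairpins and a common spread. That run cannot check a spread particular to a hairpin or to the control. Ratio intervals (95%) are exact conditional binomial. Alternatives used DESeq2 1.42.0, limma 3.58.1, other scalings, filters and prior counts. The members, lists and tests were chosen with earlier results of these data known. Genes named are those 2-fold away with both hairpins, up to 2 of highest FPKM per role, those with the extreme hairpin differences, and per other list up to 4 past 2-fold. Others were chosen after their values were seen. GENCODE 29 gave strands and transcript lengths. RefSeq gave promoters. P-values measure only the spread between these libraries, which may be technical.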

Additional observations from a re-analysis of the deposited data

How the results depend on the processing

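No paired analysis was possible, since the control has 1 library and the hairpin libraries are numbered by hairpin, not by pair. All 9 members 2-fold away with both hairpins kept that size under each other scaling and prior count, and no called fold changed sign. The filter of a mean of at least 5 CPM left 6 members higher, since CLDN3 was then not tested. Library totals shifted the median log2 fold of all genes by 0.14 with shRNA 1 and 0.26 with shRNA 2. They put the median of all members at 0.50 and 0.74, of tight junction genes with shRNA 2 at 0.93, and of desmosome genes at 0.08, turned in sign, and 0.46. A mean of at least 5 CPM turned the desmosome median with shRNA 1 to 0.03. Genes past edgeR's test numbered 158, against 6 with library totals, 6 with TMM on tested genes, 0 with no low-expression filter (1461 at unadjusted p below 0.05), 90 with limma voom and 534 with DESeq2. Members past it numbered 1, against 0, 0, 0, 1 and 6 in the same order; at unadjusted p below 0.05 the settings with 0 had 10, 9 and 7 members. Genes 2-fold higher and lower with both hairpins numbered 766 and 700, against 1280 and 1525 without the filter and 501 and 466 at 5 CPM. Leaving out either hairpin library gave 1191 to 1820 higher and 1129 to 1441 lower, and for desmosome genes 2 to 4 higher, with DSC3 and DSG3 added by shRNA 2 alone. No hairpin test was run with 1 library left out, since no residual degree of freedom remains. Depth limits CLDN2, CLDN6, CLDN16 and ILDR1.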
